A study of Mus musculus with 2 samples.

Results

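A set of 9 genes of the Wnt pathway, Wnt2, Wnt5a and Wnt7b (ligands), Sfrp1, Dkk2 and Dkk3 (secreted inhibitors) and Axin2, Lef1 and Nkd1 (targets and feedback), were followed in lung organoids. They are 9 of the 27998 genes in the count tables and were picked by symbol, with earlier results of these data known. All 9 had a row in both libraries. They were read beside a list of 81 Wnt pathway genes of which they are part. Alveolar type 2 (AT2) cells, the surfactant-producing progenitors of the alveolus, were sorted from C57BL/6 SPC-CreERT2;R26R-tdTomato mice given tamoxifen, in which Cre is driven by the promoter of the surfactant gene Sftpc, and were grown together with cultured lung stromal cells, for 2 weeks per the series description, while the study's legend gives a later day. The control organoids received PBS and the others IL-1β, and both groups share the genotype, the tamoxifen and the stromal co-culture. The stromal cells had been depleted of CD31+, EpCAM+ and CD45+ cells and then cultured, so they are a model of cultured mesenchyme rather than of the whole lung stroma. A single library of 3′ single-cell RNA-seq was made per condition, so no test between conditions was possible. Every interval given is a 95% interval for counting error alone.

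Wnt ligands are secreted proteins that bind Frizzled receptors with LRP5/6 or ROR co-receptors. In the canonical branch, binding stabilizes β-catenin, which enters the nucleus and activates target genes together with TCF/LEF factors, whereas ligands such as WNT5A are known mainly for β-catenin-independent signaling. In the adult lung, fibroblasts near AT2 cells are known as a Wnt source, and Axin2 marks alveolar cells that respond to Wnt. Secreted frizzled-related proteins bind Wnt ligands outside the cell, and Dickkopf proteins act mostly on LRP5/6.

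The control library held 2101 barcodes with a median of 14613 unique molecular identifiers (UMIs) and the IL-1β library 3066 barcodes with a median of 11496.5, and 11 barcode sequences occurred in both. After filtering, 5139 cells were used, of which 1285 control and 2583 IL-1β cells were epithelial and 796 control and 475 IL-1β cells were stromal. Of the 22 clusters, found without any Wnt gene, 18 had at least 95% of their cells from 1 library, so for most clusters cluster and library cannot be told apart. The 38 cells of cluster S9 held both epithelial and stromal markers, and leaving them out moved 0 of the member ratios past their counting interval. In the IL-1β library, 4 of 475 stromal cells had 28 to 76 UMIs of the 4 endothelial markers Pecam1, Cdh5, Kdr and Cldn5, and no other stromal cell of either library had more than 2. The 5 immune markers Ptprc, Tyrobp, Fcer1g, Cd68 and C1qa summed to 25.2 CPM (341 UMIs, all 5 found) in control stromal cells and 17.8 CPM (168 UMIs) in IL-1β stromal cells, where Ptprc and C1qa were at 0 and Cd68 had 161 of the UMIs. Their part in the results was not tested. Levels are the UMIs of a gene per 1000000 UMIs of the cells summed (CPM), and since they come from the 3′ ends of transcripts they are compared between cells and libraries for 1 gene at a time.

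Promoter sequences are shown for 2 of the targets, Axin2 and Nkd1, because their levels moved in opposite directions in epithelial cells, as described further on. Axin2 (ENSMUSG00000000142, chr11:108920349-108950783, plus strand, GRCm38) codes for a scaffold of the β-catenin destruction complex and is the usual readout of canonical Wnt signaling. Nkd1 (ENSMUSG00000031661, chr8:88521354-88594884, plus strand) codes for a Dishevelled-binding feedback inhibitor. The windows below, from RefSeq on GRCm38.p6, run from 250 bases before the annotated start to 50 bases after it, at chr11:108920099-108920398 for Axin2 and chr8:88527383-88527682 for Nkd1, both on the plus strand, with the bases from the start onward in capitals. The Nkd1 window belongs to a start inside the GENCODE span printed above, downstream of the first start of the gene, whereas the Axin2 window is at the first start.
Axin2: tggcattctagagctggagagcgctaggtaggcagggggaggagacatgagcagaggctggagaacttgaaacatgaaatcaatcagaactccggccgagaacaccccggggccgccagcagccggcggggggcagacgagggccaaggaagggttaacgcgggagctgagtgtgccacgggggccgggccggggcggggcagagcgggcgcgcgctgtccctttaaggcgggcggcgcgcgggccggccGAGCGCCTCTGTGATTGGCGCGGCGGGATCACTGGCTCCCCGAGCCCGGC
Nkd1: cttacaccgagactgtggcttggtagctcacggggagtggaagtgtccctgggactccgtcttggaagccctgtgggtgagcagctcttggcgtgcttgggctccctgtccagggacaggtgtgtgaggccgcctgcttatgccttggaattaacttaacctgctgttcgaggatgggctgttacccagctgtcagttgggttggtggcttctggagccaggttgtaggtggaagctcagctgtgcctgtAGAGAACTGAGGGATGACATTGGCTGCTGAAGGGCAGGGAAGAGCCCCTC
The motif CTTTGAT or CTTTGAA, a form of the TCF/LEF recognition sequence, occurred on either strand in 8.65% of 32851 such windows. None of the 8 windows found for 5 of the members (Axin2, Wnt2, Dkk2, Lef1 and Nkd1) held these letters, which says nothing about sites elsewhere in the genes. The set of windows held none for Wnt5a, Wnt7b, Sfrp1 and Dkk3.

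The first question was which compartment carried each gene. In control organoids, 5 of 7 members with at least 100 UMIs were at least 2-fold higher in stromal than in epithelial cells and 2 were at least 2-fold lower, while 19.6% and 15% of all genes with that many UMIs were so. In IL-1β organoids the counts were 4 higher and 2 lower of 6, beside 12.4% and 22.4% of all genes. Wnt5a, Sfrp1, Dkk2 and Dkk3 were the stromal genes of both libraries, Wnt7b and Nkd1 the epithelial ones, and Axin2 was found in both compartments. Because free RNA and mixed droplets carry transcripts between classes, each value was read against reference markers. Of their stromal level, 6 stromal markers showed 1.32% to 23.9% in control epithelial cells (median 2.33%) and 1.66% to 19.8% in IL-1β epithelial cells (median 2.30%). In the other direction, epithelial markers showed 3.31% to 6.63% of their epithelial level in control stromal cells and 4.89% to 7.14% in IL-1β stromal cells.

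**Figure D1:**
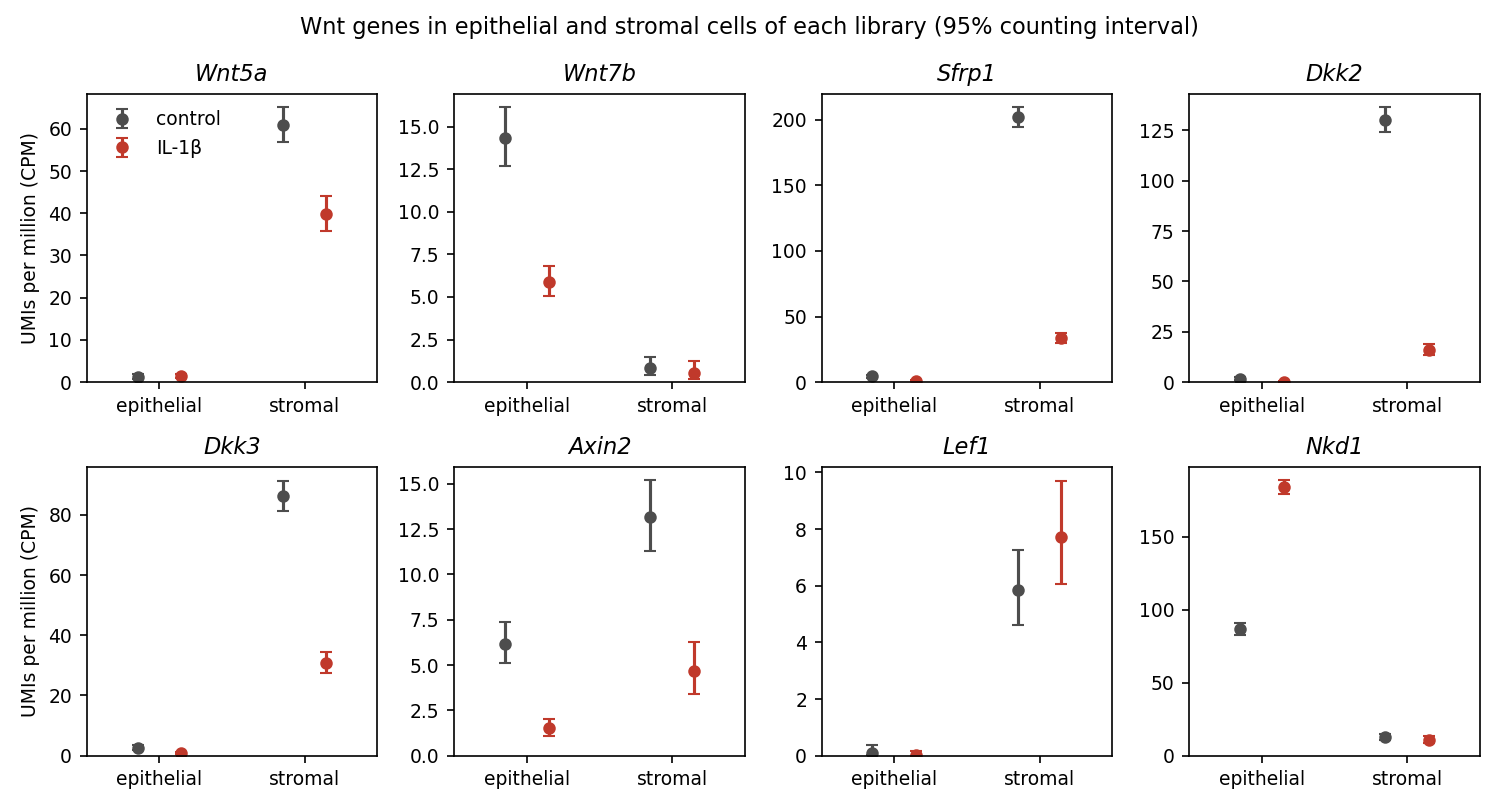
Level of 8 Wnt genes (y axis, CPM, linear from 0, own scale per gene) in epithelial and stromal cells (x axis) of the control library (gray) and the IL-1β library (red). Points are summed counts of 1 library and bars are 95% counting intervals. Wnt5a, Sfrp1, Dkk2, Dkk3 and Lef1 stood high in stromal cells, Wnt7b and Nkd1 in epithelial cells, and the stromal inhibitors were lower in the IL-1β library.

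Among the ligands, Wnt2 (ENSMUSG00000010797, chr6:17988940-18030585, minus strand), which is known as a mesenchymal ligand in the developing lung, had 0 UMIs in both libraries. A count of 0 allows up to 0.0917 CPM in control and 0.0739 CPM in IL-1β cells.

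Wnt5a (ENSMUSG00000021994, chr14:28504750-28527448, plus strand) was carried by the stroma. Its stromal level was 60.8 CPM (56.8 to 65.1) in control and 39.8 CPM (35.8 to 44.0) in IL-1β organoids, from 824 and 376 UMIs. Epithelial cells held 1.25 and 1.41 CPM, which is 2.06% and 3.56% of the stromal level and within the range of the stromal markers. In the IL-1β library only Col6a2 and Sparc, at 19.8% and 13.4%, were above Wnt5a (2.54% to 4.87%). Col1a1, Col1a2, Col3a1 and Pdgfrb lay below it, at 1.66% to 2.43%. Whether the IL-1β epithelial counts were carried over was not tested. The intervals of the 2 stromal levels did not overlap, and the ratio of IL-1β to control was 0.654 (0.577 to 0.739). The median gene was itself lower in IL-1β stromal cells, by a log2 ratio of -0.33 over 10059 genes, and relative to that shift the log2 ratio of Wnt5a was -0.29 in place of -0.61. With every cell thinned to 4000 UMIs, 17.7% of control and 10.5% of IL-1β stromal cells had a Wnt5a UMI, against 0.62% and 0.46% of epithelial cells. Without thinning these shares were 48.9% and 35.6% of stromal cells, at median depths of 15723.5 and 14849 UMIs, and 1.87% and 1.66% of epithelial cells, at 13923 and 11293 UMIs.

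The stromal clusters differed in Wnt5a within each library. In control organoids the highest level was in S8, a cluster of 73 cells whose top genes included Col11a1, Srpx2 and Thy1, with 163 CPM (143 to 185) against 48.4 CPM in all other control stromal cells. In IL-1β organoids it was in S7, 82 cells led by Mmp10, Mmp12, Il11 and Areg, with 112 CPM (96.6 to 130) against 25.0 CPM in the other stromal cells. The IL-1β clusters S2 and S3 held 26.2 and 24.5 CPM with overlapping intervals, and the control clusters S1, S4 and S5 held 47.7 to 53.8 CPM, also overlapping. Without S7 the log2 ratio of Wnt5a between the libraries was -1.29, and without S8 it was -0.28. S8 has control cells only and S7 mostly IL-1β cells, so each of these steps lowers mainly the level of 1 library.

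Wnt7b (ENSMUSG00000022382, chr15:85535437-85582473, minus strand), a ligand of lung epithelium, showed the opposite compartment. Control epithelial cells held 14.3 CPM (12.7 to 16.1) from 275 UMIs, and IL-1β epithelial cells 5.88 CPM (5.06 to 6.80) from 183 UMIs. Stromal cells held 0.812 and 0.529 CPM, from 11 and 5 UMIs, at 5.66% and 8.99% of the epithelial level. The epithelial levels of the 2 libraries were apart, with a ratio of 0.410 (0.338 to 0.496). After thinning, 6.61% of control and 2.01% of IL-1β epithelial cells had a Wnt7b UMI, against 0.25% and 0.21% of stromal cells, and without thinning 17.9% and 5.88% of epithelial cells had one.

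The Wnt7b ratio of IL-1β to control was lower in AT2-lineage cells (the AT2-like, primed AT2-like and cycling-like clusters) than in AT1-like cells, the flat gas-exchange type that AT2 cells give rise to. In control organoids the AT2-lineage cells were mostly E3 and E5 and the AT1-like cells E7, while in IL-1β organoids they were mostly E1, E2 and E4 and, for AT1-like cells, E6, whose top genes also included Cldn4 and AW112010, markers of damage-associated transient progenitors (DATPs), an intermediate between AT2 and AT1 cells. Each class therefore compares different clusters. AT2-lineage cells held 13.5 CPM (11.7 to 15.4) in control and 3.46 CPM (2.75 to 4.30) in IL-1β organoids, a ratio of 0.257 (0.196 to 0.333). AT1-like cells held 18.5 CPM (14.2 to 23.8) and 10.8 CPM (8.05 to 14.1), a ratio of 0.580 (0.394 to 0.852). The intervals of the 2 ratios did not overlap, but with 1 library per condition the difference between them was not tested. Within the IL-1β library the primed AT2-like clusters were unequal, with 1.2 CPM in E1 (782 cells), 2.66 CPM in E4 (521 cells) and 6.88 CPM in E2 (666 cells). The highest epithelial level of all was in E9, 51 airway-like IL-1β cells led by Scgb3a1 and Scgb3a2, with 36.4 CPM (25.0 to 51.1) against 4.97 CPM in the other IL-1β epithelial cells.

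Other ligands of the 81-gene list were read with the same rule. In epithelial cells Wnt3a was at 8.66 CPM in control and 4.53 CPM in IL-1β organoids (ratio 0.523, 0.415 to 0.659), and Wnt7a at 12.9 and 8.32 CPM (ratio 0.646, 0.541 to 0.772). Wnt4 moved the other way, from 6.42 to 12.3 CPM (ratio 1.92, 1.56 to 2.37). In stromal cells Wnt5b was at 17.9 and 8.88 CPM (ratio 0.497, 0.383 to 0.640). Ligands therefore differed in direction within the epithelium, with Wnt7b, Wnt3a and Wnt7a lower and Wnt4 higher in the IL-1β library.

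Among the inhibitors, all 3 members were stromal and all 3 were lower in IL-1β stromal cells. Sfrp1 (ENSMUSG00000031548, chr8:23411502-23449632, plus strand), a secreted frizzled-related protein, had 202 CPM (194 to 210.0) in control and 33.3 CPM (29.7 to 37.2) in IL-1β stromal cells. The ratio was 0.165 (0.146 to 0.185). In epithelial cells it had 4.38 and 0.932 CPM, at 2.17% and 2.80% of the stromal level, which is close to the median of the stromal markers. The epithelial ratio of 0.213 (0.134 to 0.328) therefore stood on counts at the level of carried-over stromal RNA, except in E9, where 51 cells held 13 of the 29 IL-1β epithelial UMIs. Without E9 the epithelial log2 ratio of Sfrp1 was -3.05 in place of -2.23. After thinning, 37.3% of control and 4.63% of IL-1β stromal cells had an Sfrp1 UMI, against 1.48% and 0.39% of epithelial cells, and without thinning the stromal shares were 63.8% and 11.6%.

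The Sfrp1 that was left in the IL-1β stroma lay in few cells. Cluster S6, contractile-like by Acta2 and Tagln, was among the few clusters with cells of both libraries, and held 396 CPM (368 to 425) in 80 control cells and 398 CPM in 18 IL-1β cells. These 18 cells carried 226 of the 315 Sfrp1 UMIs of IL-1β stromal cells, and 131 of those were in 1 cell. Without that cell the 17 others held 188 CPM, and all other IL-1β stromal cells together with them 19.6 CPM. The 4 cells with endothelial markers were also among the 18 and held 8 of the 226 UMIs. Leaving out the whole of S6 gave a stromal log2 ratio of -4.08, and leaving out the cell of each library with most Sfrp1 gave -3.32, in place of -2.60. In the control library Sfrp1 was spread over S5 (280 CPM), S4 (186 CPM) and S1 (185 CPM), and was low in S8 at 32.0 CPM against 223 CPM in the other control stromal cells. It was also low in S10, the other cluster named contractile-like. The 28 control cells of S10 held 20.98 CPM (7.70 to 45.66), from 6 UMIs. High Sfrp1 was thus a feature of S6 and not of both contractile-like clusters.

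Dkk2 (ENSMUSG00000028031, chr3:132085292-132180304, plus strand), a Dickkopf protein that binds LRP5/6, had 130 CPM (124 to 137) in control and 16.2 CPM (13.7 to 19.0) in IL-1β stromal cells. The ratio was 0.124 (0.105 to 0.147). Epithelial cells held 1.77 and 0.257 CPM, at 1.36% and 1.59% of the stromal level, near the lowest stromal marker. After thinning, 25.5% of control and 4.21% of IL-1β stromal cells had a Dkk2 UMI, against 0.54% and 0.08% of epithelial cells, and without thinning the stromal shares were 39.8% and 7.37%. The gene was concentrated in both libraries. Among control clusters with at least 20 cells, S8 held 480 CPM (445 to 517) against 87.8 CPM in all other control stromal cells, followed by S4 with 182 CPM and S1 with 74.4 CPM, all with intervals apart. In IL-1β organoids S7 held 79.9 CPM (66.7 to 95) against 3.18 CPM elsewhere, which is 128 of 153 UMIs in 17.3% of the stromal cells. The stromal log2 ratio was -3.01 over all cells, -5.36 without S7 and -2.44 without S8. As for Wnt5a, leaving out either cluster lowers mainly the level of 1 library.

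Dkk3 (ENSMUSG00000030772, chr7:112116017-112159057, minus strand), a divergent member of the Dickkopf family, differed by less. It had 86.2 CPM (81.4 to 91.3) in control and 30.8 CPM (27.3 to 34.5) in IL-1β stromal cells, a ratio of 0.357 (0.313 to 0.406). Epithelial cells held 2.61 and 0.900 CPM, or 3.02% and 2.92% of the stromal level. After thinning, 27.6% of control and 13.9% of IL-1β stromal cells had a Dkk3 UMI, against 1.25% and 0.43% of epithelial cells, and without thinning the stromal shares were 61.6% and 37.5%. Unlike Dkk2, it was broadly spread, with S8, S4 and S6 at 140, 118 and 110 CPM and overlapping intervals in neighboring pairs of that order, and the IL-1β clusters S7 and S2 at 49.3 and 35.7 CPM. In S6 it was at 110 CPM in control and 86.4 CPM in IL-1β cells, a ratio of 0.783 (0.562 to 1.07) whose interval holds 1. Other members were lower within S6. There Dkk2 was at 32.5 CPM in control and 3.53 CPM in IL-1β cells, from 63 and 2 UMIs, a ratio of 0.109 (0.0129 to 0.409). Wnt5a in S6 was at 34.5 and 17.6 CPM, a ratio of 0.510 (0.234 to 0.998). The members thus did not move alike within this cluster.

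**Figure D2:**
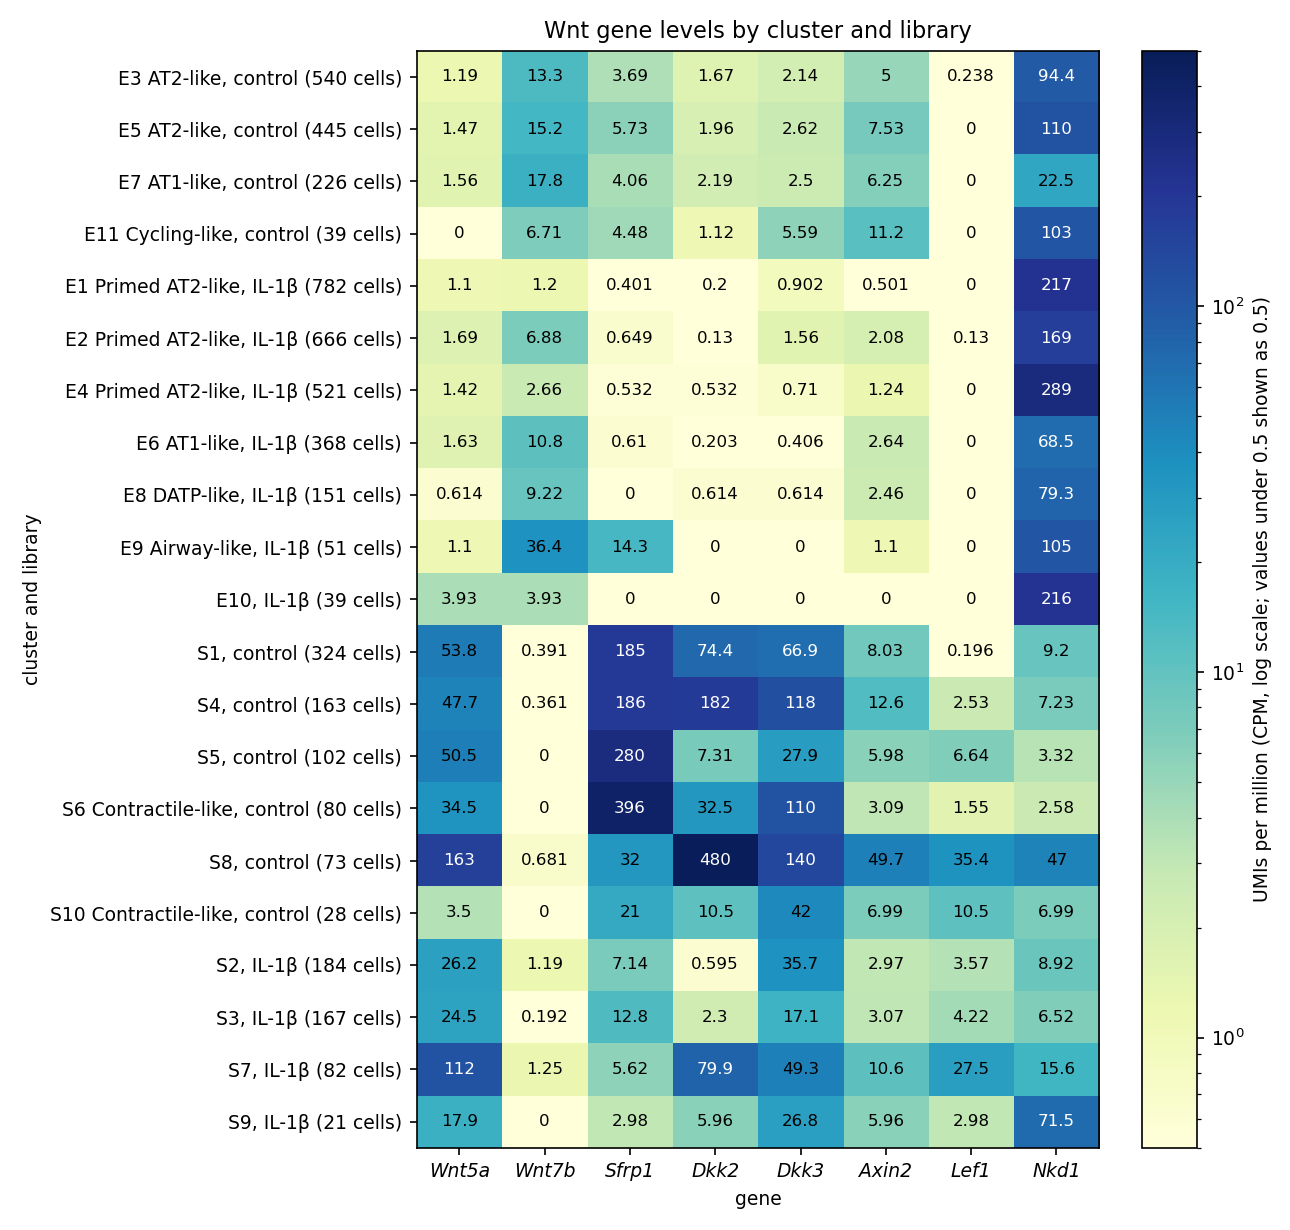
Level of 8 Wnt genes (columns) in each cluster and library with at least 20 cells (rows), as CPM printed in each cell and colored on a log scale from 0.5 to 500. Dkk2, Wnt5a, Axin2, Lef1 and Nkd1 peak together in S8 among control stromal clusters, S7 has the highest Wnt5a, Dkk2 and Lef1 of the IL-1β clusters, and Nkd1 fills the epithelial rows.

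Among the targets, Axin2 was lower in IL-1β organoids in both compartments. Control epithelial cells held 6.15 CPM (5.09 to 7.37) from 118 UMIs and IL-1β epithelial cells 1.51 CPM (1.11 to 2.01) from 47 UMIs, a ratio of 0.245 (0.171 to 0.347). Control stromal cells held 13.1 CPM (11.3 to 15.2) and IL-1β stromal cells 4.65 CPM (3.38 to 6.25), a ratio of 0.354 (0.249 to 0.495). The epithelial level was 46.8% and 32.5% of the stromal level, above the highest stromal marker in each library. After thinning, 1.95% of control and 0.62% of IL-1β epithelial cells and 5.4% and 1.26% of stromal cells had an Axin2 UMI, so these are sparse counts, and without thinning the shares were 8.33%, 1.74%, 16.6% and 6.95%.

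By epithelial class, Axin2 stood at 6.26 CPM (5.08 to 7.63) in control and 1.24 CPM (0.83 to 1.78) in IL-1β AT2-lineage cells, a ratio of 0.198 (0.126 to 0.302). AT1-like cells held 6.08 CPM (3.71 to 9.39) and 2.64 CPM (1.40 to 4.51) from 20 and 13 UMIs, a ratio of 0.434 (0.198 to 0.917). The DATP-like class had 4 UMIs in 152 IL-1β cells and 0 in 14 control cells. The 2 class ratios have overlapping intervals.

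In the stroma, Axin2 was highest in S8, at 49.7 CPM (39.0 to 62.5) against 8.70 CPM in the other control stromal cells, which is 41.0% of the UMIs in 9.17% of the cells. The next cluster, S4, held 12.6 CPM (8.81 to 17.6), and its interval did not meet that of S8. S8 had 0 IL-1β cells, and in the IL-1β library S7 was highest with 10.6 CPM (6.18 to 17.0) against 3.44 CPM elsewhere. Without S8 the stromal log2 ratio was -0.90 in place of -1.50, still lower in the IL-1β library but by less than 2-fold. Since S8 has control cells only and the highest Axin2, leaving it out lowers the control level alone.

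Lef1 (ENSMUSG00000027985, chr3:131110471-131224356, plus strand), a DNA-binding partner of β-catenin and itself a Wnt target, was found in stromal cells, with 5.83 CPM (4.62 to 7.27) in control and 7.72 CPM (6.05 to 9.71) in IL-1β organoids. Epithelial cells had 2 and 1 UMIs. The stromal ratio was 1.32 (0.949 to 1.84), and its interval holds 1. S8 and S7 carried most of it, S8 with 35.4 CPM (26.4 to 46.4) and 65.8% of control stromal UMIs, and S7 with 27.5 CPM (20 to 36.9) and 60.3% of IL-1β stromal UMIs, with overlapping intervals. Without S8 the log2 ratio was 1.79, without S7 it was -0.67, and over all stromal cells 0.40. S8 has 0 IL-1β cells, and S7 has 82 IL-1β and 4 control cells. Leaving out S8 therefore lowers the control level alone, and leaving out S7 lowers mainly the IL-1β level. Of the 5 immune markers, S8 held 12 UMIs (8.17 CPM, with Ptprc and C1qa at 0) and S7 held 33 UMIs (20.6 CPM), all of Cd68, and their part in the Lef1 level was not tested. After thinning, 2.26% of control and 4.21% of IL-1β stromal cells had a Lef1 UMI, and without thinning 5.53% and 9.89%.

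Nkd1 ran against Axin2 in the epithelium. It had 86.5 CPM (82.4 to 90.8) in control and 184 CPM (179 to 189) in IL-1β epithelial cells, a ratio of 2.13 (2.01 to 2.25) from 1659 and 5726 UMIs. With surfactant, mitochondrial and ribosomal protein genes left out of the total, the log2 ratio was 0.97 in place of 1.09, just under 2-fold. After thinning, 28.5% of control and 46.8% of IL-1β epithelial cells had an Nkd1 UMI, against 4.77% and 5.26% of stromal cells, and without thinning the epithelial shares were 59.2% and 73.3%. AT2-lineage cells held 101 CPM (96.3 to 106) in control and 218 CPM (213 to 225) in IL-1β organoids, a ratio of 2.16 (2.04 to 2.29), and AT1-like cells 22.2 CPM (17.4 to 27.9) and 68.4 CPM (61.3 to 76.1), a ratio of 3.08 (2.39 to 4.03). The 3 highest clusters with a name were the IL-1β primed AT2-like clusters E4, E1 and E2, at 289, 217 and 169 CPM with intervals apart, followed by E5 (control, AT2-like) at 110.0, E9 (IL-1β, airway-like) at 105, E11 (control, cycling-like) at 103 and E3 (control, AT2-like) at 94.4 CPM, each overlapping the next.

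**Figure D3:**
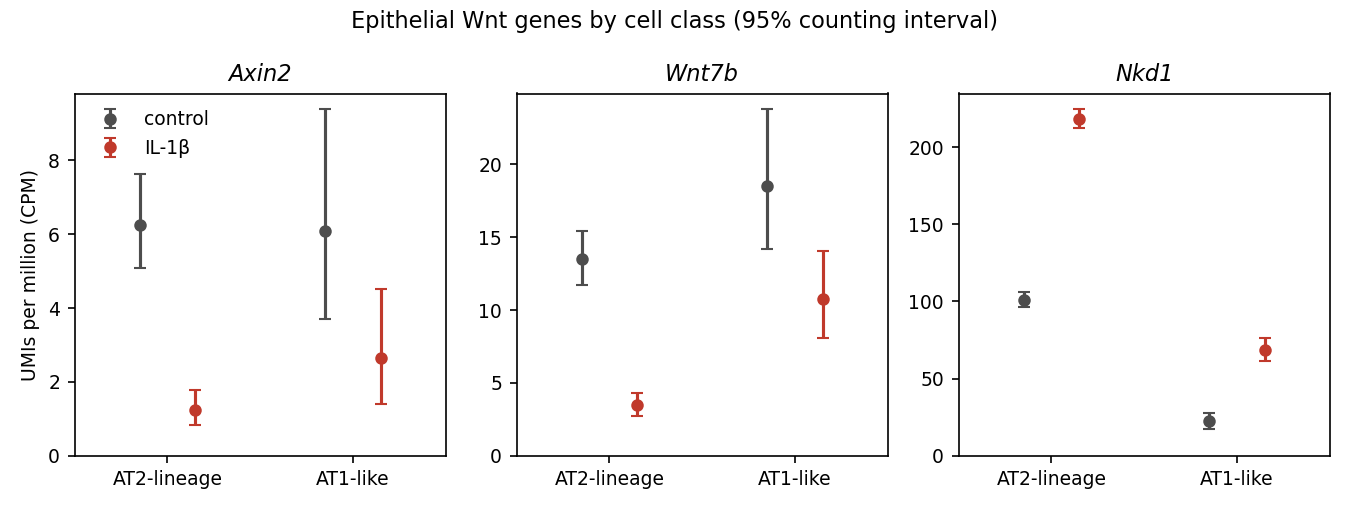
Axin2, Wnt7b and Nkd1 (panels; y axis, CPM, linear from 0) in AT2-lineage and AT1-like cells of the control library (gray) and the IL-1β library (red), with 95% counting intervals. In AT2-lineage cells Axin2 and Wnt7b were at least 2-fold lower and Nkd1 at least 2-fold higher in the IL-1β library. Nkd1 was at 218 CPM in IL-1β AT2-lineage cells against 101 CPM in control. In AT1-like cells Nkd1 was also higher, while the Wnt7b ratio of 0.580 was short of 2-fold. Axin2 in AT1-like cells rests on 20 and 13 UMIs, under the minimum for a call.

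Stromal Nkd1 was at 12.5 CPM (10.7 to 14.5) in control and 10.9 CPM (8.89 to 13.2) in IL-1β cells, a ratio of 0.873 (0.676 to 1.12) whose interval holds 1. These levels are 14.4% and 5.92% of the epithelial ones, so the control value lay above the epithelial markers carried into stromal cells and the IL-1β value within their range. In control stroma S8 held 47.0 CPM (36.6 to 59.5) against 8.28 CPM in the other cells. Among control stromal clusters with at least 20 cells, S8 thus held the highest Axin2, Lef1, Dkk2, Wnt5a and Nkd1 together with low Sfrp1. Among the IL-1β ones S7 held the highest Axin2, Lef1, Dkk2 and Wnt5a. Its Sfrp1 level was 5.62 CPM, beside 7.14 CPM in S2, 12.8 CPM in S3 and 2.98 CPM in S9. Comparing a cluster with the rest of its library is a description, since genes correlated with these may have shaped the clusters.

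Across the wider pathway, counts past 2-fold were taken over the genes with at least 100 UMIs in a compartment. In stromal cells 45 of the 81 genes passed that minimum, of which 19 were at least 2-fold lower and 2 at least 2-fold higher in IL-1β organoids, beside 10.4% and 3.57% of all 10059 genes. The median log2 ratio of the list was -0.62, against -0.33 for all genes. Of the 2 higher genes, Sp5 had a control level within the range of carried-over epithelial RNA. Of the 9 members, 7 passed the minimum, 4 of them (Sfrp1, Dkk2, Dkk3 and Axin2) lower and 0 higher. The members and the list were chosen with earlier results of these data known, so their counts are a description only. In epithelial cells 43 of the 81 genes passed, 8 lower and 3 higher, beside 3.65% and 6.19% of all 11054 genes, with a median of -0.29 against 0.06. Of the members, 4 passed there, Axin2, Wnt7b and Sfrp1 lower and Nkd1 higher. These epithelial counts include Sfrp1 and Rspo1 among the lower and Sfrp2 among the higher genes, all 3 at the level of carried-over stromal RNA. Wnt9a, Fzd8 and Lgr4, at ratios of 0.499, 0.498 and 0.497, are also among the lower, with intervals that hold 0.5. By class, 3 members passed in AT2-lineage cells, Axin2 and Wnt7b lower and Nkd1 higher, beside 3.53% and 6.32% of all genes, and 2 in AT1-like cells, where Nkd1 was higher and 0 were lower, beside 4.12% and 2.62%. After thinning, 11 of 26 list genes were lower in stromal cells and 3 in epithelial cells. Relative to the median gene 12 were lower in stromal cells, without S8 4 were higher there, and without E9 5 were lower in epithelial cells. The share of all genes was not counted under these alternative settings, so their counts have no background to be read against.

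Beside Dkk2 and Sfrp1, the lower stromal list genes with interval limits farthest from 1 were Tnfrsf19, a TNF receptor family gene known as a β-catenin target, Nkd2, the paralog of Nkd1, and Frzb, a secreted frizzled-related protein. Tnfrsf19 had 116 UMIs in control and 0 in IL-1β stromal cells, a ratio of 0 with an interval up to 0.0463. With 3 UMIs put in place of the 0 the ratio was 0.0370. Nkd2 was at 117 and 9.73 CPM (ratio 0.0834, 0.0669 to 0.103), and Frzb at 59.1 and 15.3 CPM (ratio 0.260, 0.216 to 0.310). The control-only cluster S8 held 569 CPM of Nkd2, with 52.9% of the UMIs in 9.17% of control stromal cells. In S6 Nkd2 was not lower, at 64.9 CPM in 80 control and 75.8 CPM in 18 IL-1β cells. A contrast with stromal Nkd1 was not tested, since the IL-1β level of Nkd1 lay within the range of carried-over epithelial RNA. The R-spondin Rspo2, on fewer counts, was at 8.12 and 1.90 CPM (ratio 0.234, 0.134 to 0.388). Rspo3, the R-spondin with the most stromal counts, was at 255 and 223 CPM (ratio 0.873, 0.826 to 0.922), short of 2-fold. The 2 higher genes were Sp5, a transcription factor and Wnt target, at 1.99 and 12.1 CPM (ratio 6.05, 3.95 to 9.57), and Sfrp2, at 88.1 and 197 CPM (ratio 2.24, 2.08 to 2.41). Stromal Sp5 was 5.75% of its epithelial level in control, from 27 UMIs, which is within the range of carried-over epithelial RNA. In IL-1β cells it was 26.2%, above that range. The control side of the Sp5 ratio thus stood on counts at the level of carry-over. The secreted inhibitors of the stroma therefore did not move as 1 group, with Sfrp1, Frzb, Dkk2 and Dkk3 lower and Sfrp2 higher.

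In epithelial cells the higher list genes were Cd44, a hyaluronan receptor, at 91.8 and 371 CPM (ratio 4.04, 3.84 to 4.25), Nkd1, and Sfrp2, at 2.03 and 4.85 CPM (ratio 2.39, 1.67 to 3.49). Beside Sfrp1, Axin2 and Wnt7b, the lower genes named by the same rule were Rspo1, an R-spondin that enhances Wnt signaling, at 4.22 and 1.06 CPM (ratio 0.251, 0.162 to 0.381), and the receptor Fzd2, at 33.7 and 12.7 CPM (ratio 0.378, 0.332 to 0.429). The epithelial levels of Sfrp2 were 2.31% and 2.46% of its stromal levels and those of Rspo1 3.42% and 2.13%, so both epithelial ratios, like that of Sfrp1, stood on counts at the level of carried-over stromal RNA. Epithelial Cd44 was 21.4% of its stromal level in control, within the range of the stromal markers, and 132% in IL-1β cells, above it. Whether the control Cd44 counts were carried over was not tested. Stromal Rspo1 was at 123 and 49.7 CPM. The cargo receptor Wls, needed for Wnt secretion, was at 236 and 204 CPM in epithelial and 234 and 164 CPM in stromal cells.

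**Figure D4:**
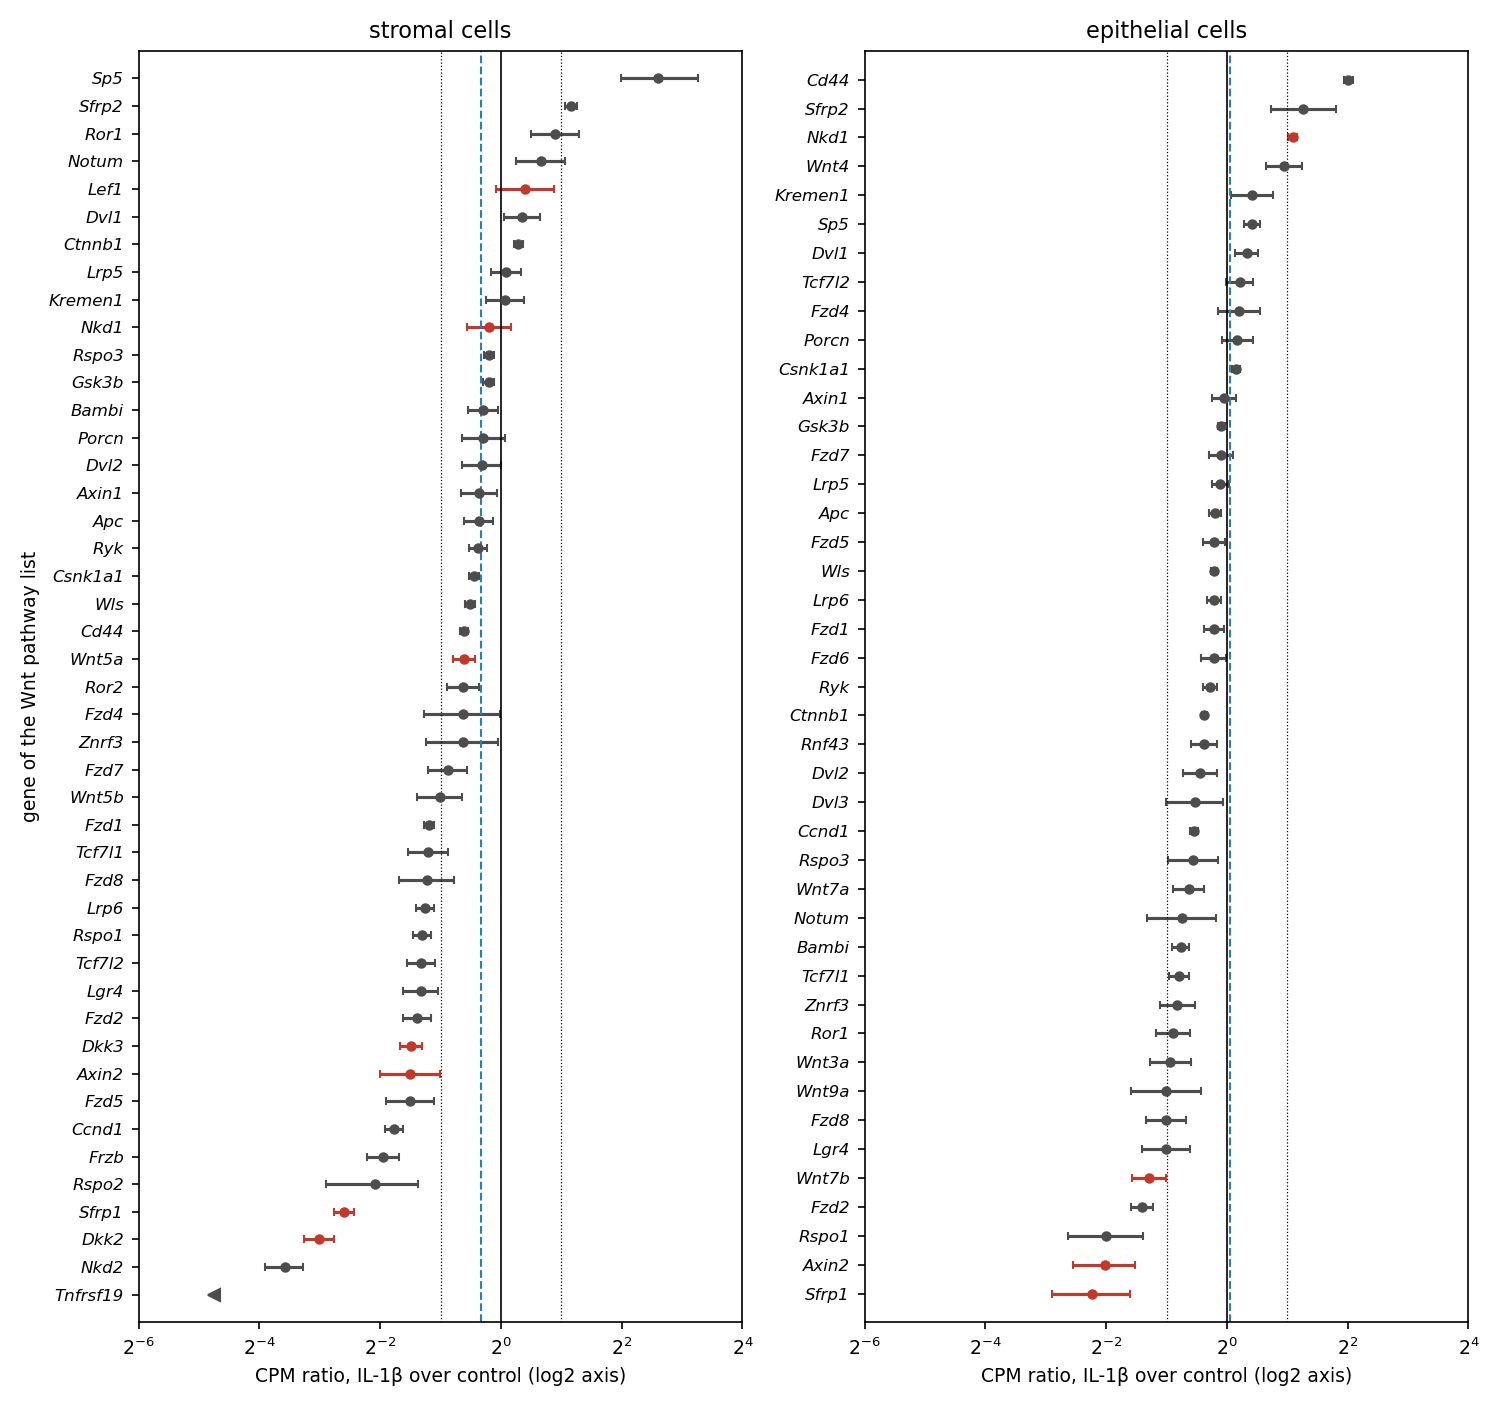
Ratio of the IL-1β to the control level (x axis, log2 scale) for each Wnt pathway gene with at least 100 UMIs, in stromal (left, 45 genes) and epithelial cells (right, 43 genes), with members in red and 95% counting intervals as bars. Dotted lines mark 2-fold, the dashed line the median of all genes and the triangle a ratio with 3 UMIs put in place of a count of 0. Nkd2, Dkk2 and Sfrp1 lie at the low end of the stroma, and Cd44, Sfrp2 and Nkd1 at the high end of the epithelium.

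Genes with the most similar pattern were taken as the 3 with the highest Pearson correlation of log2(CPM + 1) over the 21 cluster and library units with at least 20 cells. These units share libraries and fall into 2 compartments, so high values mostly restate the compartment and are given as a description. For Axin2 they were Ppp1r2, Sema5a and Thy1 (r from 0.84 to 0.81), the lowest values for any member. Wnt5a was most like Mrgprf, Tcf4 and Tbx3 (0.97 each), Sfrp1 like Ltbp1, Kctd12 and Abi3bp (0.95 to 0.92), Dkk2 like Aldh1a2, Slc14a1 and Slc40a1 (0.95 to 0.93), Dkk3 like Clip3, Cdh11 and Cd248 (0.98 to 0.97) and Lef1 like Gm5424, Cd53 and Chn1 (0.88 to 0.86). On the epithelial side, Wnt7b was most like AI661453, Aqp5 and Mal2 (0.91 to 0.89) and Nkd1 like Ankrd54, Car8 and Exosc7 (0.96 to 0.94).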

How the data were processed

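Per the labels and methods, the authors deposited raw UMI counts per gene and cell (10x Genomics 3′ kit), made with Cell Ranger on mouse genome GRCm38. The submitters' processing notes also list mm9 and Scanpy 1.3.6. Unfiltered values of the deposited barcodes were used as they stand, and 0 columns belonged to other series. The tables still hold stromal cells, which the study left out of its epithelial clustering and examined separately for growth factor genes.

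Barcodes were kept above 2000 UMIs and between 500 and 7000 detected genes. Scrublet settings were those of the methods and removed 3 cells (0.0583%), too few for the caller to count as working, so doublets remain. Cells were scaled to 10000 counts and clustered with scanpy 1.11.5 (50 principal components, 15 neighbors, Leiden from leidenalg 0.10.2 at resolution 1, in place of the Louvain algorithm of the study), first together and then within each compartment, without the genes of the Wnt list and their families. Clusters were named from marker lists. The rule that names them was set after seeing the clusters, so names may differ from those of the study. The name primed AT2-like has weak marker support. In E1, E2 and E4 the mean log2 score of its 6 markers was 0.36, 0.22 and 0.56, against a minimum of 0.2. None of these markers was among the top 10 genes of those clusters.

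UMIs were summed per class and library. Intervals are exact Poisson for levels, from the exact binomial split of both counts for ratios, and exact Clopper-Pearson for shares. PCR duplicates are removed by UMIs, and the intervals cover counting error only. Counts of 10059 stromal and 11054 epithelial genes were also drawn from a Poisson law with 200 known changes each, all planted well past 2-fold. Of these changes 100% were recovered, and 95.9% and 95.4% of intervals held the true ratio. The draws had no spread between cells or libraries, so they check the calculation and not the spread of the data. A gene is called higher or lower at a ratio of at least 2 or at most 0.5 with at least 100 UMIs over both libraries.

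The members, gene lists and alternatives were chosen with earlier results of these data known. All members are named, and of the whole list, members included, up to 5 higher and 5 lower genes past 2-fold per compartment, ranked by the interval limit nearest 1, and ligands with at least 100 UMIs in a library. Others (Wls, stromal Rspo1, Rspo2 and Rspo3) were added after their values were seen. Gene positions are from GENCODE M21. Predicted genes overlap Lef1 and Nkd1 on the same strand and have no row in the tables.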

Additional observations from a re-analysis of the deposited data

Results flagged for a closer look

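For 5 genes of the Wnt list the IL-1β to control ratio went in opposite directions in epithelial and stromal cells, with neither interval holding 1. These differences were not tested, since each condition has 1 library. The share of all genes meeting this rule was not counted, so the 5 genes have no background to be read against. The median gene itself differed between the compartments, with a log2 ratio of 0.06 in epithelial and -0.33 in stromal cells. The values below are not corrected for that shift. The log2 ratio in epithelial cells minus that in stromal cells was 2.62 for Cd44, which was higher in IL-1β epithelial cells (ratio 4.04) and lower in IL-1β stromal cells (ratio 0.655). It was 0.60 for Csnk1a1, with ratios of 1.11 and 0.733. It was -0.66 for Ctnnb1, which codes for β-catenin, with ratios of 0.773 and 1.22. It was -1.41 for Notum, an enzyme that removes the lipid of Wnt ligands, with ratios of 0.594 and 1.58, and -1.78 for the WNT5A co-receptor gene Ror1, with ratios of 0.538 and 1.85. Epithelial Notum was 40.4% of its stromal level in control, above the stromal markers. In IL-1β cells it was 15.2%, within the range of those markers. Epithelial Cd44 was 21.4% of its stromal level in control, within the range of the stromal markers, and 132% in IL-1β cells.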

How the results depend on the processing

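Of the 11 member ratios with at least 100 UMIs, 0 that were past 2-fold reversed under the 20 settings run for stromal and 16 for epithelial ratios. Of these, 13 were planned and the others chosen after seeing the data (clusters S6, S7, S8, S9 or E9 left out, endothelial-marker cells left out, the top cell left out, and ratios centered on the median gene). In all, 179 values stayed within the counting interval while 25 did not. The cause of these moves was not tested. In log2 ratios of stromal cells, thinning gave -2.13 for Axin2, -3.05 for Sfrp1 and -1.23 for Dkk3, and the mean of single-cell CPM gave -3.21 for Sfrp1 and 0.19 for Nkd1. Without S8 they were -0.90 for Axin2, -0.28 for Wnt5a, -2.44 for Dkk2, 1.79 for Lef1 and 0.40 for Nkd1. Without S7 they were -1.29 for Wnt5a, -2.38 for Sfrp1, -5.36 for Dkk2, -1.68 for Dkk3 and -0.67 for Lef1. S8 has control cells only and S7 mostly IL-1β cells, so leaving out either moves mainly the level of 1 library. Sfrp1 was -4.08 without S6, and without the top cell Sfrp1 was -3.32 and Dkk2 -3.28. Centered ratios were -0.29 for Wnt5a, -2.27 for Sfrp1, -2.68 for Dkk2 and -1.16 for Dkk3. In epithelial cells, Wnt7b was -1.77 after thinning, Sfrp1 -3.05 without E9 and Nkd1 0.97 without surfactant, mitochondrial and ribosomal protein genes. Stromal list genes past 2-fold numbered 1 higher and 11 lower after thinning, 7 and 30 with no minimum beyond 1 UMI, 4 higher without S8 and 12 lower after centering. Epithelial ones numbered 5 higher and 13 lower at 20 UMIs, 6 and 20 at 1 UMI, and 3, 3 and 5 lower after thinning, without the highest 5% of scrublet scores and without E9. Shares over all genes were not counted under these settings, so these counts show only how the list counts move. Thinning lowered all 32 shares of cells with a UMI. No paired analysis was possible because each condition has 1 library.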
